A study of Mus musculus with 134 samples.

Results

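H3K27me3 and H3K4me3 SET-seq each give an expression library from the same cells as the chromatin library. The 12 expression libraries compared here were those titled H3K27me3 SET-seq or H3K4me3 SET-seq, at 100, 1000 and 10000 cells, with 2 libraries for each antibody and cell number. They are 12 of the 54 bulk expression libraries and of the 134 samples of the series. All came from ES-E14TG2a, a mouse embryonic stem cell (mESC) line of the 129/Ola strain grown with serum and LIF, with an age label of day 1, without treatment and without a changed gene. The ConA beads held the nuclei, and the cytoplasmic RNA was taken off before the antibody was added. The question was whether the expression profile read beside one mark differed from that read beside the other. The labels give no date or batch of library preparation, so that antibody and preparation cannot be told apart. Nothing says that the 2 libraries of a condition came from separate cultures, and the p-values then measure only the spread between these libraries.

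H3K27me3 is written by Polycomb repressive complex 2 (PRC2), with Ezh2 as its enzyme and Eed and Suz12 as core partners, and it covers silent developmental genes in mESCs. H3K4me3 is written at promoters by the MLL and Set1 complexes, with Wdr5, Ash2l and Rbbp5 as shared subunits. Many developmental promoters of mESCs carry both marks and produce little RNA. The marks themselves were not analysed here. All values below are of RNA from the fraction left after the nuclei were bound, reverse transcribed from oligo-dT primers. The counts also hold the ribosomal RNA precursor Rn45s and nuclear RNAs, as given below.

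The libraries held 1440010 to 8602574 counts. Rn45s, the precursor of ribosomal RNA, took 15.2% to 34.2% of them and was removed, which left 1220628 to 6046513 counts. The 10 markers of mESCs fixed for the check, such as Pou5f1, Nanog and Dppa5a, summed to 4326 to 5900 RPKM in the H3K27me3 libraries and 4445 to 6224 RPKM in the H3K4me3 libraries, where RPKM are counts scaled to the length of the exons and to the library total outside Rn45s. Of the markers of other cells, the 10 of feeder fibroblasts summed to 0.87 to 14.5 RPKM, the 6 of primitive endoderm to 0.36 to 2.77 RPKM and the 7 of trophoblast to 4.41 to 11.7 RPKM. The neural markers reached 61.7 to 107 RPKM, of which the tubulin gene Tubb3 gave 58.4 to 104 RPKM, while Pax6 stayed between 0 and 0.24 RPKM. The blood markers reached 15.5 to 42.9 RPKM, nearly all from the lysosomal gene Cd68, with 2 of the 5 blood markers at 0 in all 12 libraries.

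No gene passed the test between H3K27me3 and H3K4me3 SET-seq. With cell number as a factor, edgeR's quasi-likelihood test called 0 of 12124 genes (0%) at an adjusted p below 0.05, and the smallest adjusted p was 0.997. An unadjusted p below 0.05 was found for 375 genes, or 3.09%. DESeq2 also called 0 genes with 440 genes at an unadjusted p below 0.05, and limma voom with a weight for each group called 0 with 517. In the same edgeR fit 2187 genes (18%) differed between the cell numbers, whose libraries also differed in depth. The median log2 fold change over all genes tested was -0.01, and 95.9% of the estimates lay within 2-fold. Among the 12124 genes tested, all 6 H3K27me3 libraries lay above all 6 H3K4me3 libraries for 9 and below them for 11. Of all genes, 0% were called, and whether these counts exceed chance was not tested.

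How small a difference the data could show depended on the level of the gene. The 95% interval of the fold change lay within 2-fold in both directions for 8428 of the 12124 genes, or 69.5%. This held for 100% of the 973 genes with a mean of at least 100 RPKM, 99.5% of the 2697 genes from 20 to 100 RPKM and 90.6% of the 3629 genes from 5 to 20 RPKM. It held for 42.5% of the 3441 genes from 1 to 5 RPKM and 1.52% of the 1384 genes below 1 RPKM. Thus a 2-fold difference lay outside the interval of nearly every gene above 20 RPKM, but outside that of only 21 of the 1384 genes below 1 RPKM. These intervals are of a common difference over all cell numbers, not of the difference at a single one.

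**Figure D1:**
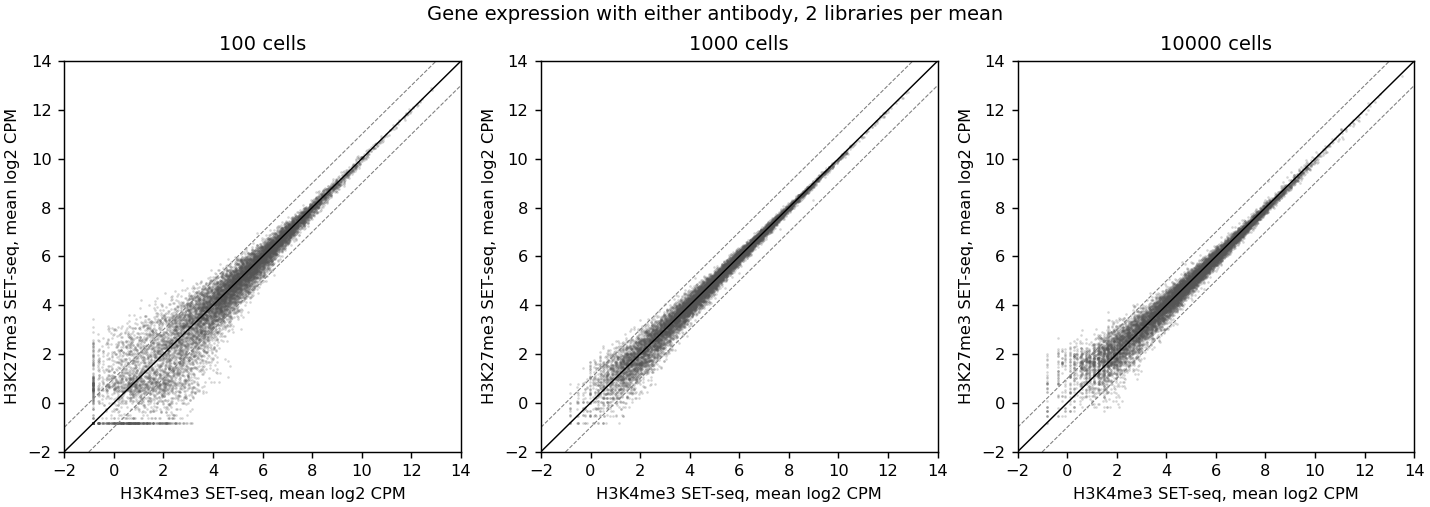
Mean log2 CPM (counts scaled to the library total) of each of the 12124 genes tested, H3K27me3 SET-seq on the y axis and H3K4me3 SET-seq on the x axis, for 100, 1000 and 10000 cells; each mean is of 2 libraries, the solid line marks equal values and the dashed lines a 2-fold difference. The points follow the line at all cell numbers and scatter most at 100 cells among genes with few counts.

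No gene that writes, reads or removes the 2 marks was called. Of the 12 PRC2 subunits, all were tested and 0 were called, with a median log2 fold change of -0.07 beside -0.01 over all genes. Ezh2 (mm9, chr6:47480273-47545029) had 81.0, 93.4 and 122 RPKM as the lowest, the median and the highest value in the H3K27me3 libraries, and 80.7, 101 and 135 RPKM in the H3K4me3 libraries. The arms overlapped, and the log2 fold change was -0.11 (95% interval -0.28 to 0.06, edgeR adjusted p = 0.997). Suz12 (chr11:79806608-79847625) ranged from 55.1 to 100.3 RPKM with H3K27me3 and from 52.2 to 89.1 RPKM with H3K4me3, with a log2 fold change of 0.03 (-0.12 to 0.17). Eed (chr7:97103164-97129486) ranged from 99.6 to 158 RPKM and from 112 to 155 RPKM, with a log2 fold change of -0.13 (-0.27 to 0.01). On the linear scale, the intervals of the 3 core subunits lay between 0.826 and 1.13 times the H3K4me3 level.

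Jarid2, which helps to bring PRC2 to chromatin, had a median of 33.3 RPKM with H3K27me3 and 35.9 RPKM with H3K4me3, and a log2 fold change of -0.10 (-0.26 to 0.06). Aebp2, a DNA-binding subunit of PRC2, was low at 4.47 to 8.68 RPKM with H3K27me3 and 6.50 to 8.66 RPKM with H3K4me3. Its log2 fold change was -0.26 (-0.57 to 0.05). At 100 cells the H3K27me3 libraries had 5.01 and 4.47 RPKM of Aebp2 and the H3K4me3 libraries 8.66 and 8.12 RPKM, which do not overlap. At 10000 cells they had 7.49 and 8.68 RPKM against 6.50 and 7.51 RPKM, which overlap. The test of a difference that depends on cell number gave Aebp2 an adjusted p of 0.658 in edgeR.

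Of the 20 PRC1 subunits, the other Polycomb complex, 0 were called and the median log2 fold change was -0.06. The estimates reached from -0.70 for Pcgf5, at 0.52 to 2.06 RPKM, to 0.96 for Cbx8 at 1.94 to 15.8 RPKM. The intervals of these 2 genes also reached beyond 2-fold. Rnf2, which carries the ubiquitin ligase activity of PRC1, had a median of 22.7 RPKM with H3K27me3 and 25.4 RPKM with H3K4me3.

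The 16 subunits of H3K4 methyltransferase complexes had a median log2 fold change of 0.02 and 0 calls, and the intervals of all 16 lay within 2-fold. Wdr5 had medians of 141 and 143 RPKM and a log2 fold change of -0.05 (-0.20 to 0.10). Ash2l had medians of 125 and 127 RPKM and a log2 fold change of -0.07 (-0.19 to 0.05). Setd1a, one of the methyltransferases, had the highest estimate with 0.28 (-0.02 to 0.58).

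Of the 9 genes on the list of H3K27 and H3K4 demethylases, 0 were called and the median was -0.07. Kdm6a, which removes H3K27 methylation, had a median of 9.28 RPKM with H3K27me3 and 9.87 RPKM with H3K4me3, and a log2 fold change of -0.12 (-0.37 to 0.13). Kdm5b, which removes H3K4 methylation, had medians of 67.6 and 72.8 RPKM and a log2 fold change of -0.07 (-0.19 to 0.04). Kdm2a, known for removing methylation of H3K36, was the only gene of the list with an unadjusted p below 0.05 (p = 0.035, edgeR adjusted p = 0.997), at 5.02 to 7.17 RPKM with H3K27me3 and 3.67 to 6.24 RPKM with H3K4me3.

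**Figure D2:**
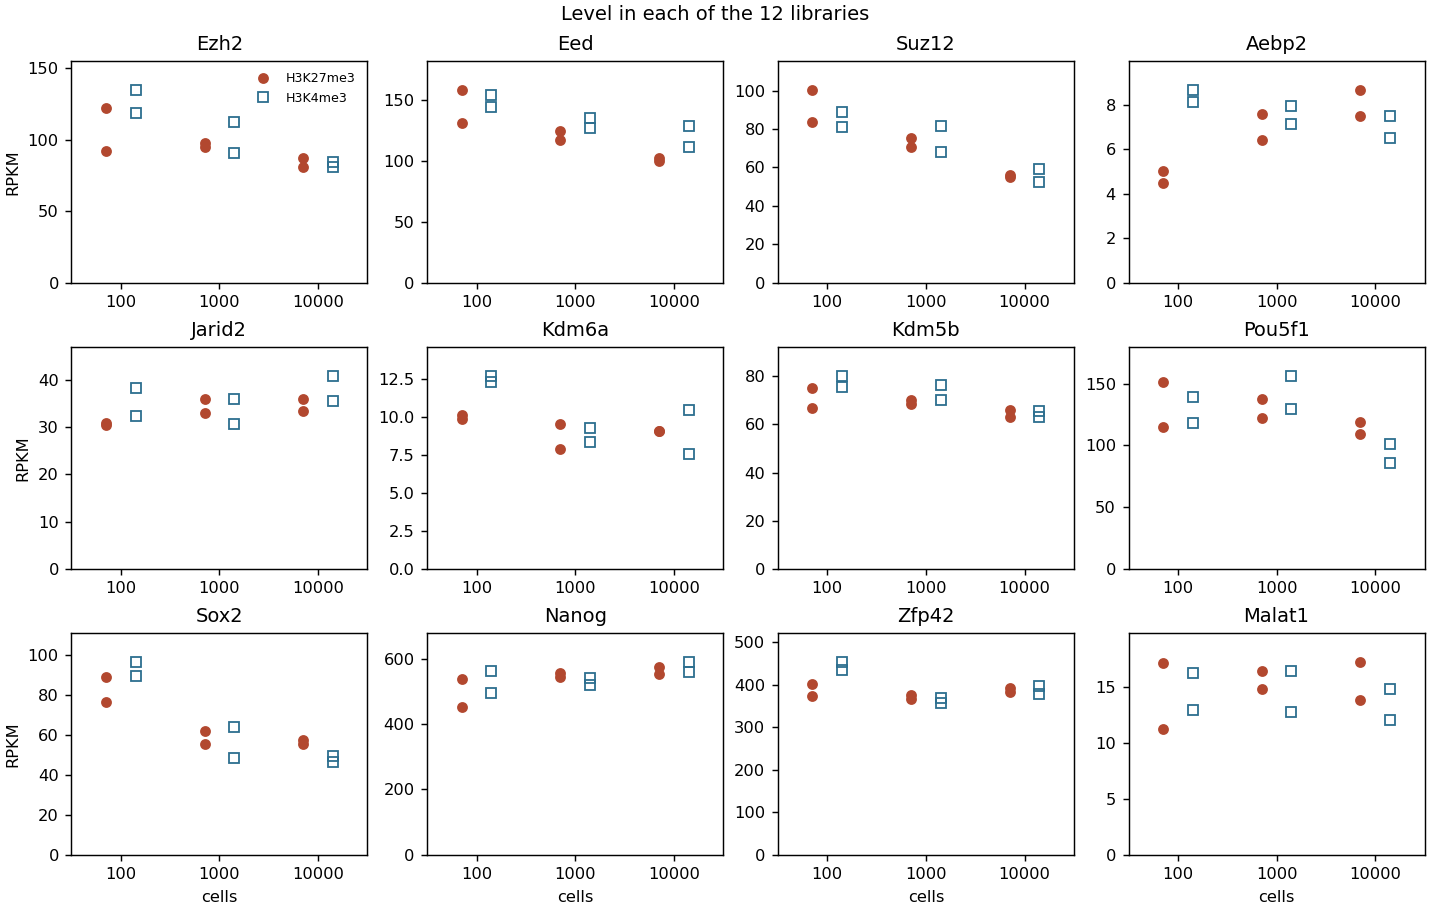
RPKM in each of the 12 libraries for 5 PRC2 subunits, 2 demethylases, 4 pluripotency genes and Malat1, with the number of cells on the x axis, H3K27me3 libraries as filled circles and H3K4me3 libraries as open squares; each y axis starts at 0. The arms differ less than the cell numbers for Ezh2, Suz12 and Sox2, and Aebp2 is low in both H3K27me3 libraries of 100 cells.

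The pluripotency genes gave narrow intervals around equal levels. Of the 12 core pluripotency genes, 0 were called, the median log2 fold change was -0.01 and the intervals of all 12 lay within 2-fold. Pou5f1 (chr17:35642977-35647722), which encodes Oct4, had 110, 121 and 151 RPKM as its lowest, median and highest values with H3K27me3 and 86.0, 124 and 156 RPKM with H3K4me3, and a log2 fold change of 0.05 (-0.15 to 0.25). Sox2, its partner, had 55.4, 59.7 and 88.8 RPKM against 46.2, 56.6 and 96.4 RPKM, and a log2 fold change of 0.03 (-0.16 to 0.22). Nanog (chr6:122657507-122664651) had 452, 548 and 574 RPKM against 494, 550 and 590 RPKM, with a log2 fold change of -0.02 (-0.13 to 0.09). The arms overlapped for all 3 genes.

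Of the 16 naive pluripotency genes, 0 were called and the median was -0.02. Zfp42, also known as Rex1, ranged from 366 to 401 RPKM with H3K27me3 and from 357 to 454 RPKM with H3K4me3, with a log2 fold change of -0.06 (-0.16 to 0.05). Dppa3 had the lowest estimate, -0.82 (-1.55 to -0.10), with medians of 10.6 and 15.6 RPKM and an unadjusted p of 0.031 (edgeR adjusted p = 0.997). The 12 tested genes of primed epiblast and Nodal signaling had a median of 0.00 and 0 calls. The 4 tested genes of the 2-cell-like state had a median of 0.20 and 0 calls, and the Zscan4 genes among them are close copies whose reads the counting could split.

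The Polycomb-bound lineage factors were nearly silent beside either antibody. Of the 28 genes on the list, such as Pax6, Gata3 and the Hox genes, 21 had a mean below 1 RPKM and 1, Hoxc8, had no count in any of the 12 libraries. The 28 together summed to 10.5 to 17.5 RPKM with H3K27me3 and 9.87 to 15.5 RPKM with H3K4me3. Of the 7 that passed the filter on low counts, 4 had a log2 fold change above 0 and 3 below, such as Gata3 with -1.08 (-2.58 to 0.43), and 0 were called. The interval lay within 2-fold for 1 of the 7, so a 2-fold difference of the others could not be told from none.

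The other lists showed no call either. In all, 547 genes on 31 lists were tested, of which 0 were called and 21 had an unadjusted p below 0.05. Over the 22 lists with at least 10 tested members, the median log2 fold change ranged from -0.26 for the 12 germline-linked genes, such as Dazl and Mael, to 0.04 for the 14 genes of LIF-STAT3 and BMP signaling. Of the germline-linked genes, 10 had an estimate below 0 and 4 had an interval within 2-fold. Their median was -0.42 at 100 cells, -0.33 at 1000 cells and 0.15 at 10000 cells. The 22 imprinted genes tested had a median of 0.02, and the 10 genes of DNA methylation and TET had a median of -0.06.

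The 81 ribosomal proteins had a median of -0.02, and 77 had intervals within 2-fold. Of the 77 respiratory chain genes, 74 had intervals within 2-fold, as did 47 of the 48 proteasome genes, and the medians were -0.02 and -0.03. Actb, the cytoskeletal actin, had medians of 1492 and 1570 RPKM and a log2 fold change of 0.00 (-0.08 to 0.09), and Hprt had medians of 302 and 304 RPKM and a log2 fold change of 0.04 (-0.08 to 0.16). Gapdh was at 5.61 to 16.5 RPKM with a log2 fold change of 0.09 (-0.49 to 0.66), and its level is uncertain because it has many close copies and reads that map to several places were not counted. The same holds for ribosomal proteins such as Rpl3, at 10.2 to 24.1 RPKM, and Rps6, at 27.8 to 49.3 RPKM, the 2 with an unadjusted p below 0.05.

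Lists of stress, growth and signaling genes had medians near 0. The medians were -0.10 for 11 immediate early genes, -0.05 for 15 heat shock genes and chaperones, 0.01 for 17 genes of the integrated stress response, 0.01 for 12 p53 targets, 0.02 for 19 cholesterol synthesis genes and 0.03 for 21 genes of glycolysis and hypoxia. They were -0.04 for 16 mitosis genes, 0.11 for 8 Wnt feedback targets, -0.01 for 10 genes of FGF and ERK feedback, 0.00 for 9 genes of ferritin and iron and -0.03 for 15 genes of cytoskeleton and secreted proteins. Of all these lists 0 members were called. The largest sizes among those with an unadjusted p below 0.05 were Idi1, a cholesterol synthesis gene, at -0.78 (-1.48 to -0.07), and Hk1, the first enzyme of glycolysis, at 0.55 (0.01 to 1.10).

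**Figure D3:**
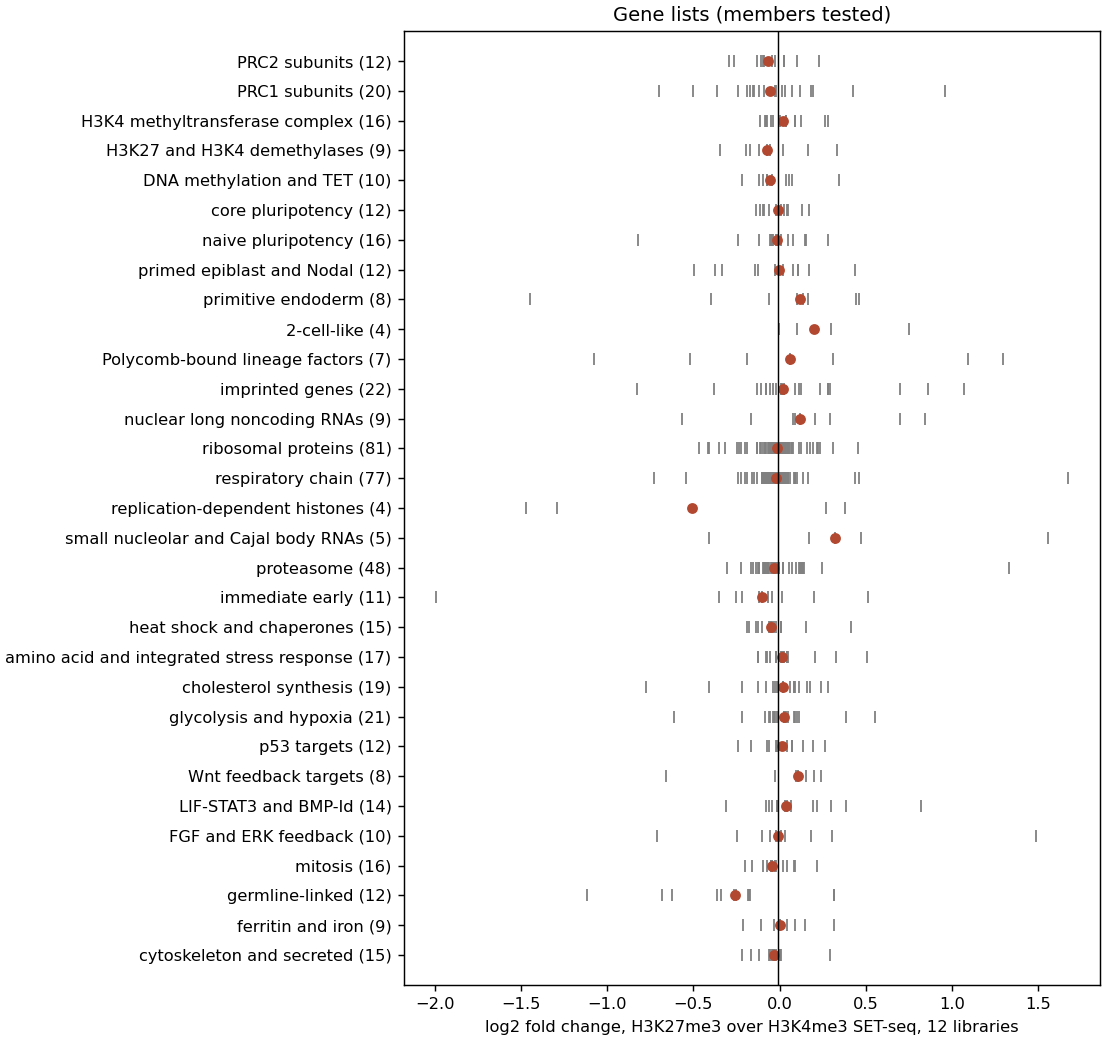
Log2 fold change of H3K27me3 over H3K4me3 SET-seq for the tested members of the 31 gene lists, with each gene as a grey tick, the median of the list as a red point, the number of tested members in brackets and the median over all 12124 genes (-0.01) as a vertical line. The medians of the lists with 10 or more members lie between -0.26 and 0.04, and wide values belong to genes with few counts.

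No RNA that mainly stays in the nucleus was called. Malat1, an abundant nuclear RNA, had 11.3, 15.7 and 17.3 RPKM as the lowest, median and highest value with H3K27me3 and 12.1, 13.9 and 16.5 RPKM with H3K4me3, with a log2 fold change of 0.07 (-0.17 to 0.32). It shares bases with the small RNA gene Mascrna on the same strand, whose reads cannot be told apart from it. Of the 9 nuclear long noncoding RNAs tested, 0 were called and the median was 0.12. Neat1, the RNA of paraspeckles, was below 1 RPKM in every library, with medians of 0.65 and 0.37 RPKM and a log2 fold change of 0.84 (0.17 to 1.52, unadjusted p = 0.019, edgeR adjusted p = 0.997). The median over the 5 small nucleolar RNAs tested, of 114 on the list, was 0.32, and over the 4 replication-dependent histone genes, of 9, it was -0.51, with 0 intervals within 2-fold in either list.

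The share of Rn45s differed between the arms by less than its spread. It was 24.7% ± 2.65 of the counts with H3K27me3 (SD, n = 6 libraries) and 24.5% ± 7.22 with H3K4me3 (SD, n = 6 libraries), a difference of 0.24 percentage points (two-sided exact permutation test within cell number, p = 0.935, where 0.00926 is the smallest p the design allows). Without 1 library the difference ranged from -1.61 points, without H3K4me3 replicate 2 at 10000 cells (p = 0.574), to 2.17 points, without H3K4me3 replicate 1 at 1000 cells (p = 0.25), by the same exact permutation test. At 100 cells the mean share was 27.1% with H3K27me3 and 28.2% with H3K4me3, and at 1000 cells 24.4% and 28.6%. The arms overlapped at both numbers. At 10000 cells it was 22.7% and 16.6%, without overlap. The highest and the lowest shares were both H3K4me3 libraries, 34.2% at 1000 cells and 15.2% at 10000 cells.

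The 5 genes with the smallest p over the 12 libraries were Dcps, Acsf3, Elmo2, Fbln1 and Zfp623, and they were chosen after their values were seen. Acsf3 (chr8:125299386-125341787), an enzyme of mitochondrial fatty acid metabolism, had 8.90 to 14.2 RPKM in the H3K27me3 libraries and 3.89 to 8.89 RPKM in the H3K4me3 libraries, which touch but do not overlap. Its log2 fold change was 0.86 ± 0.23 (SE, 0.37 to 1.34, edgeR adjusted p = 0.997). Fbln1 (chr15:85036379-85116724), a gene of the extracellular matrix, had 5.53 to 6.89 RPKM against 2.87 to 5.34 RPKM and a log2 fold change of 0.68 (0.27 to 1.09). Dcps, which removes the cap of degraded mRNA, had 19.2 to 35.8 RPKM against 23.3 to 63.4 RPKM and a log2 fold change of -0.55 (-0.85 to -0.25). Elmo2 and Zfp623 had -0.57 (-0.90 to -0.23) and -0.61 (-0.99 to -0.23). None of the 5 was called, and 375 genes had an unadjusted p below 0.05.

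The libraries of 100 cells differed more from each other than those of 1000 or 10000 cells, with the same antibody as well as across antibodies. The biological coefficient of variation was 53.6% when the 4 libraries of 100 cells were fitted alone, 8.40% for 1000 cells and 7.38% for 10000 cells. Among genes of 5 to 20 RPKM, the median absolute log2 difference between 2 libraries of 100 cells was 0.45 with the same antibody and 0.44 between antibodies. At 1000 cells these were 0.20 and 0.19, and at 10000 cells 0.22 and 0.21. Below 1 RPKM at 10000 cells the values were 0.58 and 0.68.

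Pearson's r of log2 CPM across the 12124 genes, which are not independent replicates, was lowest at 100 cells. At 100 cells r was 0.868 and 0.902 for libraries with the same antibody and 0.884 to 0.907 between antibodies. At 1000 cells it was 0.978 and 0.978, and 0.977 to 0.978 between antibodies, and at 10000 cells it was 0.965 and 0.971, and 0.958 to 0.976. The pairs share the depth of each library. Of the variance of a gene over the 12 libraries, the antibody held 6.86% on average, the cell number 36.2%, the 2 together beyond their sum 13.6% and the replicates 43.3%. With 11 degrees of freedom, 1 for the antibody would be 9.09% of them, and for genes of at least 100 RPKM the antibody held 4.21% and the cell number 62.4%.

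**Figure D4:**
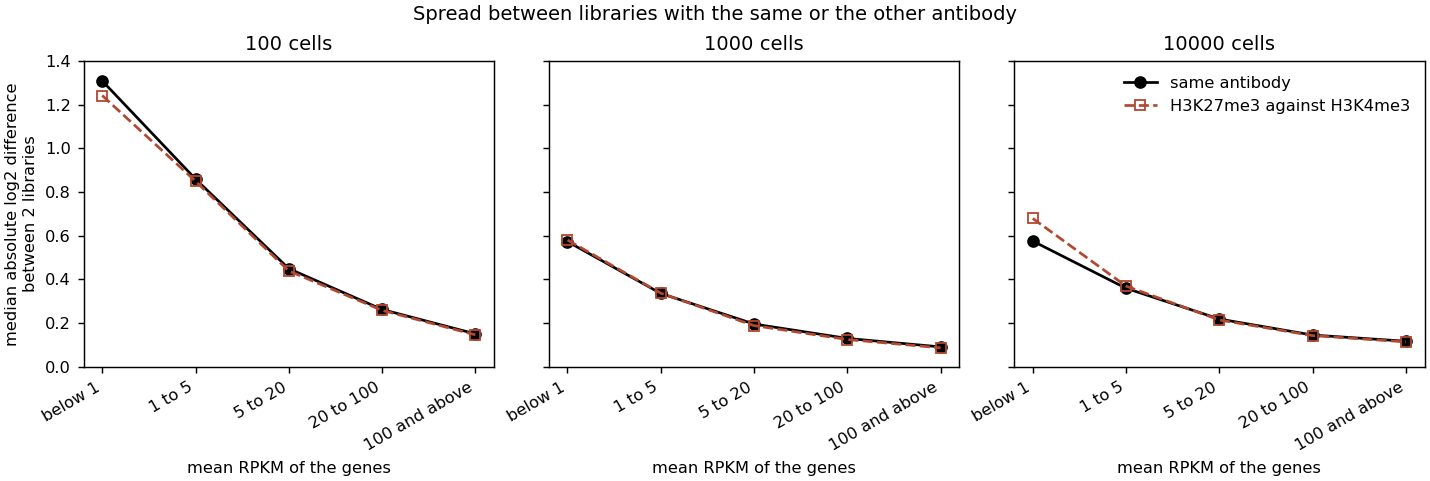
Median absolute log2 difference between 2 libraries of the same cell number, over genes grouped by mean RPKM on the x axis, for libraries with the same antibody (black circles, 2 pairs of libraries) and for H3K27me3 against H3K4me3 (red squares, 4 pairs). The lines lie close together, with the widest gap below 1 RPKM at 10000 cells (0.58 and 0.68), and the values are highest at 100 cells.

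At single cell numbers, 0 genes were called by edgeR with 1 spread shared by all 12 libraries. The unadjusted p was below 0.05 for 1919 genes (15.8%) at 100 cells, 17 genes (0.140%) at 1000 cells and 74 genes (0.610%) at 10000 cells. The shared coefficient of variation was 28.5%, below the 53.6% of 100 cells and above the others. The 0 calls at 1000 and 10000 cells thus came from a spread wider than their own. With each cell number fitted alone, an addition made after seeing the data, the numbers were 283, 378 and 489, and 0 of 11458, 0 of 10925 and 3 of 9858 genes (0.0304%) were called. DESeq2, which shares the spread too, called 268 genes (2.21%) at 100 cells and 0 genes at the other cell numbers. In edgeR with the shared spread, the number of calls at 100 cells rose in some fits that left out 1 library of 100 cells. Such a fit has a lone library in 1 group, whose spread comes from the other groups, so its calls are not counted here.

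A difference that depended on cell number was found for 0 genes in edgeR (0%), with 634 genes at an unadjusted p below 0.05 and 19 genes (0.157%) called by DESeq2. Some edgeR fits without 1 library of 100 cells called genes in this test too, but again with a lone library in 1 group. The 5 genes with the smallest adjusted p, 0.601 in edgeR, were Lman2l, Cdkn1c, Thap4, Cyb5rl and Rgma, and all 5 stood apart in the 2 H3K27me3 libraries of 100 cells. Lman2l, which carries proteins out of the endoplasmic reticulum, had 1.01 and 1.44 RPKM there, from 13 and 19 counts, and 4.71 to 12.5 RPKM in the other 10 libraries. Thap4, a gene with a THAP domain, had 55.9 and 55.1 RPKM there and 23.8 to 40.7 RPKM in the others. Neither overlapped with the other libraries.

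The other 3 genes were almost lost from these 2 libraries. Cdkn1c, an imprinted inhibitor of the cell cycle, had 0 and 1 counts there, against 33 and 30 counts in the H3K4me3 libraries of 100 cells. Cyb5rl had 0 and 0 counts against 26 and 66, and Rgma, a BMP co-receptor, had 2 and 0 counts against 45 and 29. Rgma shares bases with an antisense gene, and the reads of the pair cannot be told apart. No fold is given for genes at 0 to 2 counts. At 1000 and 10000 cells the arms of Cdkn1c lay between 3.18 and 5.76 RPKM. Fitted alone, the libraries of 100 cells gave all 5 genes an adjusted p of 1 in edgeR.

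Genes without any count were most frequent in the same libraries. Of the 10740 genes with a mean of at least 1 RPKM, 4.03% and 3.65% had no count in the H3K27me3 libraries of 100 cells and 2.36% and 1.73% in the H3K4me3 libraries of 100 cells. This share was at most 0.475% in the 8 libraries of 1000 and 10000 cells. The 4 libraries of 100 cells held the highest totals outside Rn45s, 5175336 to 6046513 counts.

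Of the 3 genes called at 10000 cells alone, all higher with H3K27me3, Sfi1 and Mir6236 are described here. Mir6236 is annotated as a microRNA gene, and its counts are of read pairs on the whole exon, not of the mature RNA. Mir6236 had 3354 and 5915 RPKM in the H3K27me3 libraries of 10000 cells and 3686 and 1318 RPKM in the H3K4me3 libraries, and the arms overlap (log2 fold change of 0.90, edgeR adjusted p = 0.0045). At 1000 cells the order was the other way, with 2434 and 2751 RPKM against 6072 and 2807 RPKM (-0.78, adjusted p = 0.099). At 100 cells it was 3867 and 5782 RPKM against 2912 and 4747 RPKM.

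Sfi1 (chr11:3031853-3100655), which encodes a centrosome protein, had 8.25 and 12.9 RPKM with H3K27me3 and 3.01 and 6.72 RPKM with H3K4me3 at 10000 cells, without overlap (log2 fold change of 1.31, edgeR adjusted p = 0.0027). It shares bases with 2 antisense pseudogenes of Pisd, whose reads cannot be told apart from it. The H3K27me3 library of replicate 2 at 10000 cells had a count on 18675 genes, against at most 15828 in the other 11 libraries. Without it, 0 genes were called at 10000 cells alone. Without replicate 1 of H3K27me3, 6 genes were called, without replicate 1 of H3K4me3, 46 genes, and without replicate 2 of H3K4me3, 2 genes, where a lone library was assumed to vary like the pair.

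**Figure D5:**
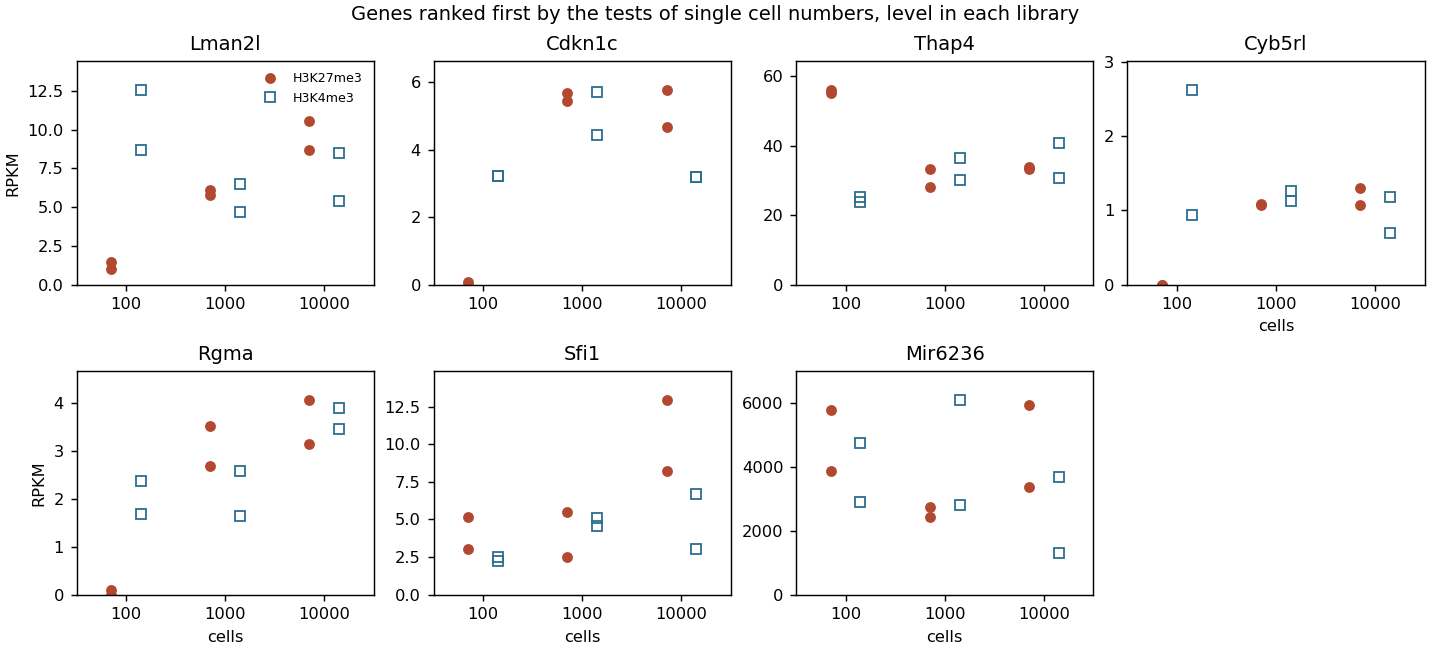
RPKM in each of the 12 libraries for the 5 genes with the smallest adjusted p of the antibody by cell number test (Lman2l, Cdkn1c, Thap4, Cyb5rl, Rgma) and 2 of the genes called at 10000 cells alone (Sfi1, Mir6236), with H3K27me3 libraries as filled circles, H3K4me3 libraries as open squares and each y axis from 0. The first 5 genes stand apart in the H3K27me3 libraries of 100 cells, at 0.10 RPKM or less for Cdkn1c, Cyb5rl and Rgma.

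Gene length and base composition moved little with the antibody. The median log2 fold change was -0.02 for the 3037 genes with up to 1910 bases of exon and 0.00 for the 3030 genes from 4679 bases on. By GC content of the exons, it went from -0.03 for the 3031 genes up to 45.9% to 0.03 for the 3031 genes from 55.4% on. At 10000 cells these medians were -0.03 and 0.05 by length, and -0.03 and 0.07 by GC.

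The titles of 6 more SET-seq expression libraries, of the same cell numbers, name no antibody. They are called libraries without antibody here, but the titles do not say that none was added. Their levels were set beside the arms with all 18 libraries scaled together, and an effect of the antibody was not tested. Ezh2 had medians of 92.1 RPKM with H3K27me3, 99.5 RPKM with H3K4me3 and 66.2 RPKM without antibody, where the 6 libraries ranged from 34.1 to 97.2 RPKM. The highest, replicate 2 at 1000 cells, rested on 54 counts in a library with 195539 counts outside Rn45s. At 10000 cells the libraries without antibody had 34.1 and 43.8 RPKM. Suz12 had 71.6, 73.1 and 36.3 RPKM, and Nanog 538, 541 and 305 RPKM. Pou5f1 had 118, 122 and 137 RPKM, and Zfp42 373, 381 and 357 RPKM. Meg3, an imprinted nuclear RNA, had 1.27, 1.20 and 4.91 RPKM, and its lowest library without antibody, at 2.69 RPKM, lay above the highest with one, at 2.15 RPKM. For Fbln1, the medians were 6.33 RPKM with H3K27me3, 3.85 RPKM with H3K4me3 and 12.0 RPKM without antibody. Its lowest library without antibody, at 7.47 RPKM, also lay above the highest with one, at 6.82 RPKM. Kdm6a went the other way, with a highest of 5.15 RPKM without antibody and a lowest of 7.41 RPKM with one. How many of all genes lay apart in this way was not counted. Both arms were set beside the same 6 libraries. Sfi1 reached 16.8 RPKM in 1 library without antibody, that of replicate 2 at 10000 cells.

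The same pair of marks was also read in single cells given Wnt3a beads for 12 h, in 10 experiments of H3K27me3 and 6 of H3K4me3 scSET-seq. Of 752 cells, 545 had more than 1000 and fewer than 5000 genes, and they were summed to 16 experiments of 4 to 62 cells. The sums differed far more than the bulk libraries. Their coefficient of variation was 178%, their counts outside Rn45s ranged from 163598 to 26601500 and their normalization factors from 0.074 to 5.65. edgeR called 915 of 8417 genes (10.9%), 666 higher with H3K27me3 (7.91%) and 249 lower (2.96%). An experiment holds cells of 1 antibody, so that antibody and experiment cannot be told apart.

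The fold changes of these calls were large beside those in bulk. The smallest called log2 fold change was 5.11 among the higher and 3.96 among the lower genes, and the 95% interval reached 2.90 to either side of the estimate in the median over all genes. In bulk, 326 of the 666 higher genes were tested with a median log2 fold change of -0.03, and 227 of the 249 lower genes with -0.01. Of these, 7 and 11 had an unadjusted p below 0.05 in bulk, beside 262 of the 6955 genes tested in both. Jarid2 was called in the single cells with -6.44 (-9.91 to -2.97, edgeR adjusted p = 0.023) and Gapdh with -5.56 (adjusted p = 0.042), while Nanog had 0.63 (-2.13 to 3.39) and Ezh2 -1.21 (-4.01 to 1.58). With all 752 cells, 361 of 881 called genes were higher with H3K27me3, so that lower genes were then in the majority. The same turn came without any 1 of H3K27me3 experiments 2 to 10. For example, 141 genes were higher and 181 lower without experiment 2, and 122 were higher and 185 lower without experiment 8. The balance of directions was thus not stable. Leaving out 1 experiment gave 307 to 1036 calls, and every one but H3K27me3 experiment 1 (871 calls) and H3K4me3 experiment 4 (1036 calls) moved the count by over 1.5 times.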

How the data were processed

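Per the file headers and the methods of the study, the authors trimmed reads with Trim Galore 0.6.4, aligned them with STAR 2.5.4b to mm9 and counted read pairs on exons of 25209 genes with featureCounts 2.0.0, without strand. The deposited values are raw counts. For single cells, the authors counted exon and intron reads without molecular identifiers, also deposited as counts. Single-cell columns of 15947 genes listed in both tables were used.

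Samples were grouped by title. Counts of 12 libraries, without Rn45s, were fitted in edgeR 4.0.16 (R 4.3.3) by the quasi-likelihood test after TMM scaling and filterByExpr, a filter that drops genes with few counts, with cell number and antibody as factors. Fold changes are log2 of H3K27me3 over H3K4me3, with 95% intervals from the fit. Benjamini-Hochberg adjusted p below 0.05 over all genes was a call. A 6-group model gave the contrasts at each cell number and the 2 df test of dependence on cell number. RPKM used exon lengths in the files and TMM-scaled totals without Rn45s. Log2 CPM had a prior count of 2. Shares of Rn45s were tested by exact permutation (Python 3.11.15, scipy 1.17.1, numpy 2.4.6, pandas 2.3.3). Alternatives were DESeq2 1.42.0, its size factors, no filter, a mean CPM of at least 10, Rn45s kept or its share as covariate, replicate blocks, thinning to 1220628 counts, each cell number or library left out and, added after seeing the data, limma 3.58.1 with group weights, each cell number fitted alone and DESeq2 size factors for single cells. Fits were tested on simulated data. Figures used matplotlib 3.10.9 and overlaps of exons bedtools.

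Named genes were to be the largest changes among called genes, up to 4 called members per list, 15 genes named always and the 5 smallest adjusted p of the dependence on cell number. With 0 calls only the last 2 parts apply, and other genes were chosen after their values were seen. The libraries, genes and lists were chosen with earlier results of these data known. Depth of the 12 libraries compared was 1440010 to 8602574 counts, and intervals cover the spread between libraries only. The 6 libraries without a named antibody gave levels only, at 243741 to 9023045 counts. Genomic libraries and the remaining bulk libraries were not used here. Some genes and sequences are not reported here.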

Additional observations from a re-analysis of the deposited data

Results flagged for a closer look

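One value stood far from the others of its arm. Nanog had 452 RPKM in the H3K27me3 library of 100 cells, replicate 2, and its gap to the nearest of the other 5 H3K27me3 libraries was 0.695 of the range of the 6. The arm mixes 3 cell numbers. In 32 such groups of 6 libraries, chance alone would flag about 1 in 20.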

How the results depend on the processing

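Between H3K27me3 and H3K4me3 SET-seq, 0 genes were called in 26 of 27 other settings. When 1 library was left out, 304 to 495 genes had an unadjusted p below 0.05. The other setting replaced the adjusted p by a log2 fold change beyond 1 in either direction and an unadjusted p below 0.05. It called 48 of the 12124 genes, and the study used these thresholds for its Aebp2 knockout. The dependence on cell number gave 19 calls in DESeq2, 12 without the filter and 0 to 178 without 1 library. At 100 cells it was 268, 251 and 0 to 1454. Without the filter 1 gene was called at 1000 cells and 1 at 10000 cells. At 10000 cells alone 3 genes were called, and without 1 library 0 to 46 (6 without replicate 1 of H3K27me3). For scSET-seq the counts were 1807 in DESeq2, 2256 without the filter and 307 to 1036 without 1 experiment. Of the 15 genes named always, 11 changed sign in at least 1 of 25 alternatives, and 0 were called in any. The causes were not tested.

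With the replicate number as a block, 0 genes were called and 360 had an unadjusted p below 0.05, and with a block within cell number 0 and 361. The main fit had no replicate block because the study's methods name none. Same-numbered libraries of the 2 antibodies deviated together by r = 0.0983 at 100 cells, -0.0165 at 1000 cells and -0.0405 at 10000 cells.

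Below 1 RPKM the 95% interval reached 1.87 to either side on the log2 scale in the median, and the part of depth in this was not tested. The libraries of 100 cells had the most counts and the largest spread. The Rn45s difference of 0.24 points ranged from -1.61 to 2.17 without 1 library. The single-cell majority of genes higher with H3K27me3 turned with all cells (361 of 881) and without any 1 of H3K27me3 experiments 2 to 10. For bulk, the 2 libraries per condition may be technical.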
